A study of Mus musculus with 18 samples.

Results

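*1810065E05Rik* (ENSMUSG00000013653) was followed as a single gene, 1 of the 55487 genes in the count files and 1 of the 12645 protein-coding genes that passed the filter of more than 3 CPM (counts scaled to a common library total) in at least 4 libraries. It was chosen because of its levels in the 3 genotypes of this study. Its differences between genotypes are therefore given as a description, with standard errors and no p-value. Whole-thickness ileum was sequenced from 18 mice, with 1 library per mouse and 6 mice per genotype. The IEC-*Ppara* mice carried CAG-*Ppara*,-*EGFP*, a transgene for FLAG-tagged *Ppara* and EGFP inserted at the *Col1a1* locus and turned on by Cre, in 1 copy (heterozygous) or in both copies of the locus (homozygous), together with *Villin-CreERT2*, a tamoxifen-activated Cre made in intestinal epithelial cells. The strain was made by injecting Cas9, guide RNA and donor plasmid into fertilized C57BL6/J eggs, and 1 line with the correct insertion was used to found it. Controls were littermates without *Villin-CreERT2*, on C57BL6/J, described as CAG-*Ppara*,-*EGFP* mice lacking Cre, and the transgene copies of each control are not given in the sources used here. All mice, controls included, received tamoxifen at 100 mg/kg in 3 daily injections and were collected 2 weeks later, at 8 to 13 weeks of age, and all ate chow. There were 3 female and 3 male controls, and 2 female and 4 male mice of either IEC-*Ppara* genotype. No *Villin-CreERT2* mouse without the transgene was among the libraries, so in the comparisons with controls the expressed transgene and tamoxifen-activated Cre cannot be told apart. Heterozygous and homozygous mice both carried Cre and received the same tamoxifen, and their labels differ by transgene copies.

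PPARα is a nuclear receptor that binds fatty acids and, paired with RXR, switches on genes of fatty acid transport and oxidation. *1810065E05Rik* has a RIKEN clone name that states no function. It lies beside *Lypd8*, which encodes a GPI-anchored protein of the LY6/uPAR family, small cysteine-rich surface and secreted proteins. LYPD8 is released by intestinal epithelial cells and binds the flagella of bacteria, which keeps them away from the epithelium.

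On GRCm38 *1810065E05Rik* occupies chr11:58421111-58426024 on the plus strand, with 6 exons that sum to 926 bases. GENCODE lists 1 transcript for it, with a coding sequence of 235 codons before the stop. No other annotated gene overlaps its body. *Lypd8* ends 30.4 kb before it, and *Gm12253* starts 6.54 kb after it, followed by *Lypd9*. The translated coding sequence shared 40.2% of 219 aligned positions with *Gm12253*, 31.1% of 222 with *Lypd8* and 31.7% of 139 with *Lypd9*. None of the 877 windows of 50 bases in its transcript occurred in a transcript of another gene, so reads of that length would not be shared with these relatives. The sequences of the 250 bases before the start sites of *1810065E05Rik* and of *Lypd8*, both plus strand and from RefSeq on GRCm38.p6, are set beside each other because the neighbours differed in their response. Capitals mark AGGTCA, the half-site bound by PPARα and other nuclear receptors. They also mark TATAAA, a core promoter motif bound by TBP. The third motif in capitals is TTTATG, the core bound by the intestinal factor CDX2.
1810065E05Rik, chr11:58420861-58421110: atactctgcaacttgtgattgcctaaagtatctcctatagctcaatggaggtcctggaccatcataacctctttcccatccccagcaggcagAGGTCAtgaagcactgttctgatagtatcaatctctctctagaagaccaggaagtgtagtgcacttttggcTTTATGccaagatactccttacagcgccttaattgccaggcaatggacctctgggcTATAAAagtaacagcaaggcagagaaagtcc
Lypd8, chr11:58378782-58379031: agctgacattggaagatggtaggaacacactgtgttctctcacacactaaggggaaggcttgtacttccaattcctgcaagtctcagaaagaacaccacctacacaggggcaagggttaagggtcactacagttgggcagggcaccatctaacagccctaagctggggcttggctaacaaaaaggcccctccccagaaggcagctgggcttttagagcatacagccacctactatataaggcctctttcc

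Each motif was searched on both strands, and none of the matches overlapped. The *1810065E05Rik* window held AGGTCA once, 158 to 153 bases before the start, TTTATG once, 87 to 82 bases before it, and TATAAA once, 31 to 26 bases before it. The *Lypd8* window held no exact match to these letters. Only exact letters were searched, so near matches in either window were not counted. The tataag near the end of the *Lypd8* window, for example, differs from TATAAA in its last base. Of 32851 RefSeq promoter windows of the same length, 14.0% held AGGTCA, 12.4% TATAAA and 10.8% TTTATG. The paired element DR1, AGGTCA repeated in the same direction with 1 base between the copies, was in neither window and in 0.0335% of all windows. These matches describe the letters only, and binding was not measured.

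Counts on genes summed to 38528522 to 50376371 per library, so that *1810065E05Rik* received between 1107 and 4840 counts in every library and counting error alone was 1.44% to 3.01% of its level. Libraries differed in tissue makeup. The summed level of 12 pan-epithelial genes was 15089 to 19203 CPM in controls, 16462 to 19540 in heterozygous and 14547 to 19229 in homozygous mice. That of 10 smooth muscle genes was 521 to 5698 CPM in controls, 657 to 4156 in heterozygous and 3890 to 8970 in homozygous mice, and that of 10 B cell genes 20.6 to 575, 16.6 to 329 and 14.7 to 98.1 CPM. Of the 10 B cell genes edgeR and DESeq2 called 0 against control in either genotype, beside 0.411% and 0.293% of all genes by edgeR. By edgeR 10 (homozygous) and 0 (heterozygous) had an unadjusted p under 0.05, beside 1019 and 669 of all 12645 genes. The median log2 fold change of the 10 B cell genes was -2.79 and -1.37. The summed level of 10 T cell genes was 40.6 to 100.6 CPM in controls, 33.1 to 65.4 in heterozygous and 33.5 to 53.1 in homozygous mice. Of the 7 tested T cell genes edgeR called 0 against control in either genotype. By edgeR 7 (homozygous) and 6 (heterozygous) had an unadjusted p under 0.05, beside 1019 and 669 of all 12645 genes. DESeq2 called 3 and 0 of the 7, beside 136 and 82 of all genes. The median log2 fold change of the 7 was -0.81 and -0.71. The part of T cells in the level of *1810065E05Rik* was not tested. None of the members of these 4 lists was at 0 in all libraries. In tissue libraries, more cells that make a transcript and more transcript per cell cannot be told apart.

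*1810065E05Rik* rose stepwise with genotype, with 32.3 ± 4.39 CPM in controls, 54.2 ± 7.95 CPM in heterozygotes and 89.0 ± 8.65 CPM in homozygotes (mean ± SD, n = 6 each). The lowest control had 26.8 CPM, the median was 31.9 and the highest was 37.8. The heterozygous mice ran from 40.8 CPM through a median of 55.4 to 62.3. The homozygous mice ran from 79.0 CPM through a median of 89.9 to 98.3. The 3 groups did not overlap. The gap between control and heterozygous mice was narrow, 3.03 CPM, and rested on heterozygous replicate 1, since the other 5 heterozygous libraries had 50.7 CPM or more. The gap between heterozygous and homozygous mice was 16.6 CPM. The mean was 1.68-fold higher in heterozygous than in control mice, 1.64-fold higher in homozygous than in heterozygous mice and 2.75-fold higher in homozygous than in control mice.

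**Figure D1:**
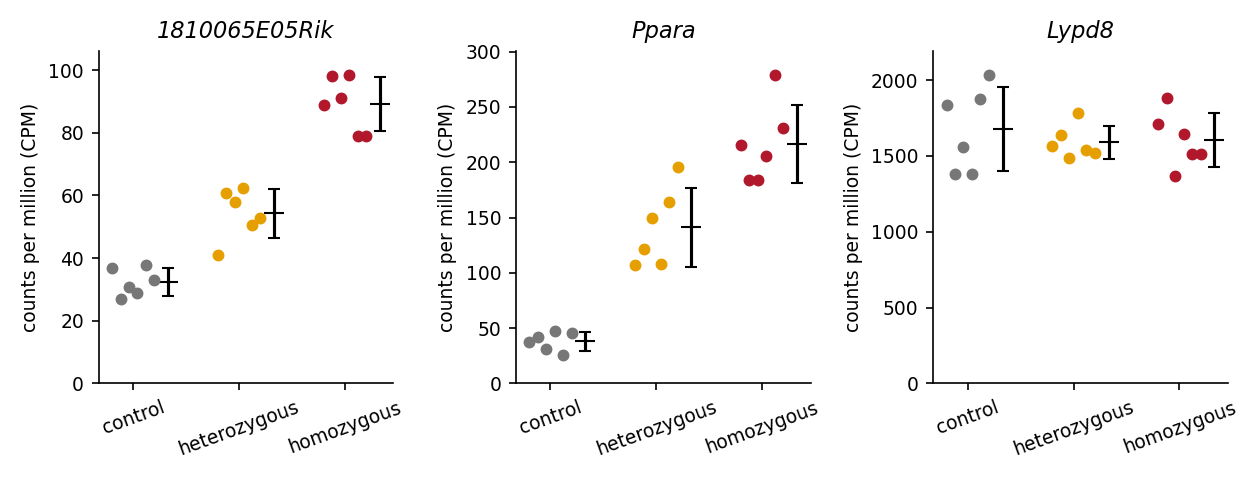
Level in CPM of 1810065E05Rik, of Ppara and of its neighbour Lypd8 in 18 ileum libraries, with 6 points per genotype and the mean ± SD beside them. The 3 groups of 1810065E05Rik stand apart, the heterozygous and homozygous groups of Ppara overlap, and so do the 3 groups of Lypd8.

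In the edgeR quasi-likelihood fit the log2 fold change of *1810065E05Rik* was 0.77 ± 0.11 (SE) from control to heterozygous, 0.69 ± 0.11 from heterozygous to homozygous, and 1.46 ± 0.11 from control to homozygous. The first pair of steps differed by less than either standard error. With the smooth muscle score as a covariate they were 0.76, 0.74 and 1.51, and relative to the pan-epithelial genes the 2 steps were 0.71 and 0.79. Without the 4 libraries richest in B cell genes (control 2 and 3, heterozygous 2 and homozygous 1) the fold changes were 0.67, 0.72 and 1.38. By length-corrected level (FPKM) it ranked 1387 of the 12645 genes in controls, 784 in heterozygous and 442 in homozygous mice.

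For the background over all genes, at an adjusted p under 0.05 (edgeR, Benjamini-Hochberg), 52 genes (0.411%) differed between homozygous and control mice, of which 47 (0.372%) were higher, 37 (0.293%) differed between heterozygous and control mice, all higher, and 1 (0.00791%) between homozygous and heterozygous mice. DESeq2 called more genes in the lower direction, with 100 higher and 36 lower, 71 higher and 11 lower, and 1 higher and 8 lower in these comparisons. *1810065E05Rik* is counted in each of these, and since it was chosen on these contrasts nothing is read from that. Its own count between homozygous and heterozygous mice was borderline, kept in 3 of 12 other settings and in 3 of 18 fits without 1 library, and that between heterozygous and control mice was lost in 1 of 12, without the 4 libraries rich in B cell genes. Every heterozygous library was above every control library for 40 genes (0.316%), every homozygous above every heterozygous library for 16 (0.127%), and every homozygous above every control library for 78 (0.617%). *1810065E05Rik* was the 1 gene of 12645 (0.00791%) whose 3 groups stood apart in the order control, heterozygous, homozygous, by CPM, FPKM, TMM-normalized or library-size log2 CPM, and 0 genes did so in the reverse order. These shares are printed as background too.

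*Ppara*, whose counts can include transgene transcript, had a lowest, median and highest level of 25.8, 39.4 and 47.4 CPM in controls, 107, 136 and 196 CPM in heterozygotes and 184, 211 and 279 CPM in homozygotes. Its log2 steps were 1.92 ± 0.18 (SE) and 0.59 ± 0.17. The highest heterozygous library for *Ppara*, at 196 CPM, was above the lowest homozygous one, at 184 CPM, so the transgene's own gene did not separate these groups library by library. For *1810065E05Rik* 47.4% of the log2 rise from control to homozygous was made between heterozygous and homozygous mice. For the other 46 genes higher in homozygous than control mice the median share was 16.2% (range -14.3% to 57.6%). Their total log2 rise was unlike, from 0.37 for *Rtn4* to 6.61 for *Cyp4a10*. On the log2 scale, 2 equal steps in CPM give a smaller share where the total rise is larger. The shares of genes with unlike rises therefore do not compare their dose response directly.

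Among these 46 genes, 4 had a larger share than *1810065E05Rik*. The largest were *Htra2*, a mitochondrial serine protease (57.6%), *Plekho2* (55.7%) and *Ret*, the receptor of GDNF family ligands (54.7%). All 3 rose less in all, by 0.56 to 0.90 on the log2 scale between control and homozygous mice. *Plekho2* was the 1 gene of the 46 whose homozygous libraries all exceeded the heterozygous ones. None of the 46 had a larger log2 step between heterozygous and homozygous mice than *1810065E05Rik*, and 13 had a larger log2 rise from control to homozygous. At the other end were *Klrb1*, a lectin-like receptor gene (-14.3%), *Esr1*, encoding estrogen receptor α (-2.61%), and *Aldh3a2*, a fatty aldehyde dehydrogenase gene (-0.731%), whose fitted level was no higher in homozygous than in heterozygous mice.

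**Figure D2:**
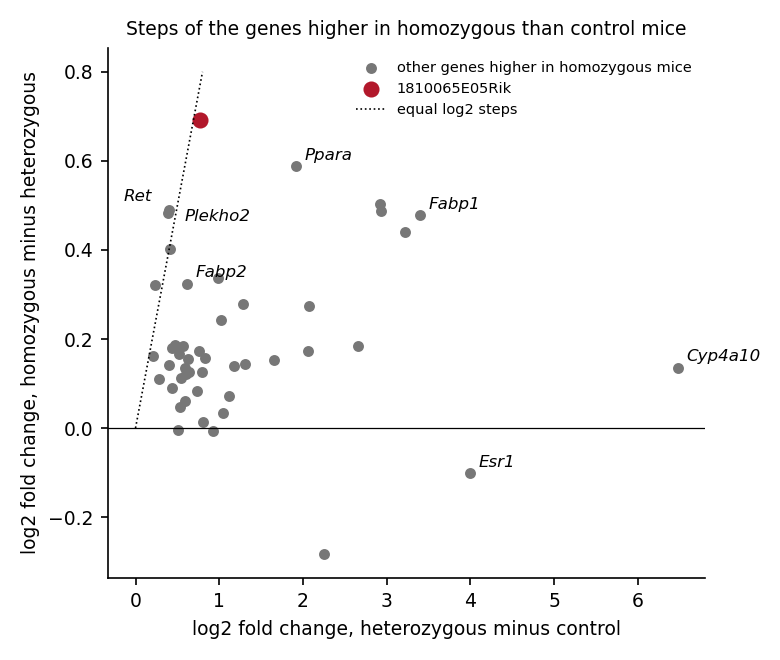
Log2 fold change from heterozygous to homozygous mice against that from control to heterozygous mice for the 47 genes higher in homozygous than control mice, 1 point per gene. 1810065E05Rik lies beside the line of equal steps at 0.77 and 0.69, while Fabp1 and Cyp4a10 made most of their rise in the first step.

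PPARα target genes were read beside it. Of a hand-written list of 36, 35 were tested. By edgeR 14 were higher in homozygous and 12 in heterozygous mice than in controls (adjusted p under 0.05). Over all genes 0.411% and 0.293% were called in these comparisons. DESeq2 called 25 and 25 of the 35, beside 136 and 82 of all 12645 genes, and limma 17 and 13, beside 67 and 35. Between homozygous and heterozygous mice edgeR, DESeq2 and limma each called 0. By edgeR 3 of the 35 had an unadjusted p under 0.05 there, beside 962 of all genes. The median log2 steps of the 35 were 0.53 and 0.06, beside -0.0058 and -0.00014 over all genes tested. The mean level of *Fabp1*, which encodes a carrier of fatty acids, was 10.8 CPM in controls, 111 CPM in heterozygotes and 158 CPM in homozygotes.

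The genes whose level was most like that of *1810065E05Rik* over the 18 libraries included *Slc25a20*, the mitochondrial carnitine-acylcarnitine carrier (Pearson r of log2 CPM 0.895), the glycerol channel *Aqp3* (0.893), *Fabp1* (0.884), *Fabp2* (0.879), *Ppara* (0.874), the peroxisomal reductase *Decr2* (0.870), the peroxisomal membrane protein *Pxmp4* (0.865), the lipid droplet enzyme *Hsd17b11* (0.861) and *Gal3st2b* (0.860). The 10 most alike were all among the genes that differed between homozygous and control mice (0.411% of all genes), which r over libraries of 3 genotypes largely fixes. These r values are a description, since they carry the genotype steps that chose the gene. With library size in place of TMM they were 0.858 to 0.896, and 8 of the 10 stayed among the 10 most alike. The lowest r were those of the urea transporter gene *Slc14a1* (-0.793), *Rragd* (-0.773), *Zdhhc19* (-0.755), *Clec2i* (-0.731) and *Tmem86b* (-0.718).

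Within genotypes, after the genotype mean was removed from each library, r with *1810065E05Rik* was lower for these genes, with 0.557 for *Decr2*, 0.430 for *Slc25a20*, 0.408 for *Fabp2*, 0.353 for *Hsd17b11*, 0.329 for *Pxmp4*, 0.302 for *Aqp3*, 0.141 for *Fabp1*, 0.122 for *Gal3st2b* and -0.267 for *Ppara*. Of the 46 other genes higher in homozygous than control mice, 33 had an r above 0 within genotypes, with a median of 0.146, beside 46.2% of all 12644 other genes and a median of -0.033.

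The variation left within genotypes was larger than counting error, by 27.8 times in controls, 53.7 times in heterozygous and 37.5 times in homozygous mice (variance of the 6 counts over that expected from counting alone). Whether other genes followed this variation was tested over all 12644 other genes in the edgeR fit, with genotype as a covariate and the deviation of *1810065E05Rik* from its genotype mean as the term of interest. No gene passed at an adjusted p under 0.05 (0%), with 877 genes at an unadjusted p under 0.05. DESeq2 called 1 gene and limma 0.

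The gene nearest to passing was *Upk1a*, which encodes the tetraspanin uroplakin 1a. It changed by 1.82 ± 0.34 log2 units per log2 unit of *1810065E05Rik* (SE, edgeR adjusted p = 0.690), and was the gene called by DESeq2 (adjusted p = 0.00148). Its level was low, 1.56 to 4.11 CPM in controls, 2.15 to 4.50 in heterozygous and 3.19 to 4.65 in homozygous mice. Over 28 of the 29 other settings, leaving out each library included, its adjusted p was 0.126 to 0.969 (the exception being DESeq2). The within-genotype r was 0.856 over all libraries, 0.955 in controls, 0.955 in heterozygous and 0.276 in homozygous mice.

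The other genes highest in r within genotypes were *Mrpl14*, a mitochondrial ribosomal protein (0.766), *Nit1* (0.760), the mitochondrial protease *Clpp* (0.757), *Serinc2* (0.751), *Mpst* (0.746), *Hexim1* (0.743), *Zfyve19* (0.742), *Ybx3* (0.739) and *Ppp1r16a* (0.739). Of these 10 genes, *Upk1a* included, edgeR called 0 between homozygous and control mice, which is at the 0.411% called over all genes. The lowest were *Fry* (-0.802), *Casd1* (-0.797), *Dgke* (-0.753), *Ttbk2* (-0.748) and *Dpm1* (-0.724). In the fit the lowest p belonged, above 0, to *Upk1a*, *Mrpl14*, *Clpp*, *9130230L23Rik* and *Serinc2*, and, below 0, to *Fry*, *Rasal2*, *Ints6l*, *Setbp1* and *Jmy*, all with an edgeR adjusted p of 0.690.

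**Figure D3:**
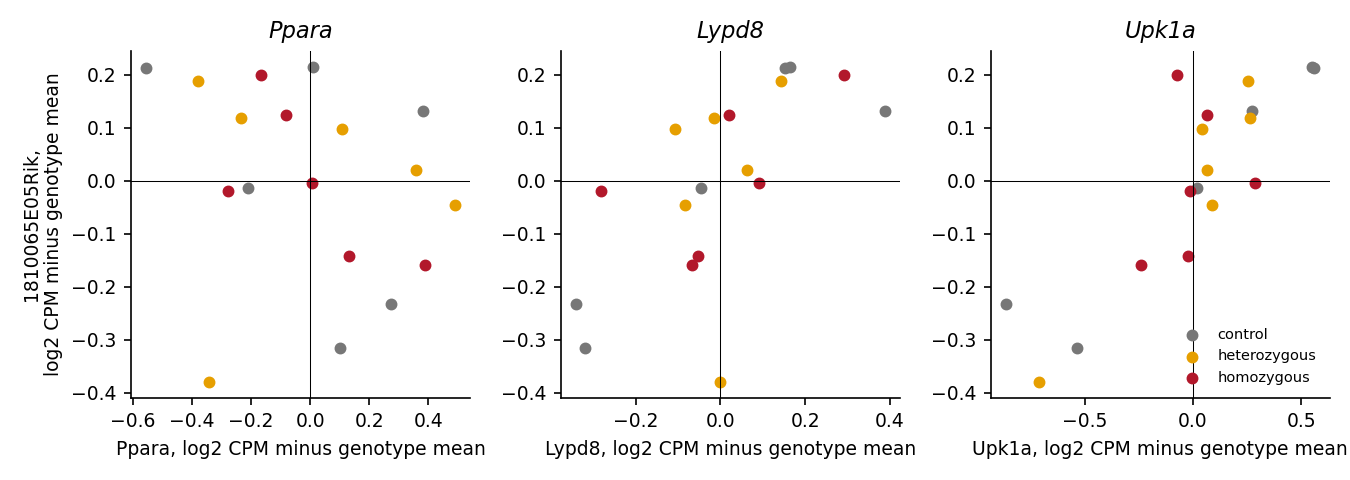
Deviation of 1810065E05Rik from its genotype mean (log2 CPM) against the same deviation of Ppara, Lypd8 and Upk1a, 1 point per library, 18 libraries, coloured by genotype. Pearson r is -0.267 for Ppara, 0.665 for Lypd8 and 0.856 for Upk1a.

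*1810065E05Rik* was also related within genotypes to 25 measures, namely *Ppara*, *Lypd8*, *Col1a1* and 22 list scores, by permutation within genotypes (100000 permutations, two-sided). *Ppara* gave r = -0.267 and rho = -0.311 (adjusted permutation p = 0.736 and 0.658). By genotype, r was -0.406 (controls), 0.067 (heterozygous) and -0.705 (homozygous), and -0.153 once the 2 most extreme libraries for *Ppara* were left out. With each library left out in turn, r with *Ppara* was -0.543 to -0.141. No positive relation with *Ppara* was seen within controls or within homozygotes.

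*Lypd8* gave the largest value, r = 0.665 and rho = 0.775 (unadjusted permutation p = 0.00638 and 0.00179, adjusted 0.159 and 0.0447), with the same direction in each genotype (0.900 in controls, 0.216 in heterozygous, 0.619 in homozygous mice) and r = 0.631 with its 2 most extreme libraries (control 4 and control 6) left out. When the pan-epithelial mean was subtracted from *1810065E05Rik* alone, and not from *Lypd8*, r with *Lypd8* was 0.039. Subtracting a score from 1 side tends by itself to lower r with genes that vary with that score. The value of 0.039 therefore does not show whether the relation with *Lypd8* rests on epithelial content. The pan-epithelial score itself gave r = 0.480 and rho = 0.540 (adjusted permutation p = 0.643 and 0.461), with 12 of its 12 genes above 0. The goblet cell score gave r = 0.478, the PPARα target score 0.283, the smooth muscle score -0.279, the B cell score -0.219 and *Col1a1* -0.049, and none of these passed (adjusted permutation p = 0.643 or more).

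*Lypd8* was far more abundant than *1810065E05Rik*, and no difference between genotypes passed the test. It was at 1306 ± 215 FPKM in controls, 1237 ± 84.4 in heterozygous and 1250 ± 140 in homozygous mice (SD, n = 6 each), with log2 differences of -0.06 ± 0.12 (SE) for both heterozygous and homozygous against control (edgeR adjusted p = 1.00 and 0.942). *1810065E05Rik* was at 34.9 ± 4.74, 58.6 ± 8.59 and 96.2 ± 9.34 FPKM. *Lypd8* was thus 37.4-fold higher in controls and 13.0-fold higher in homozygous mice. Of 44 other genes of the LY6/uPAR family, 41 were below *1810065E05Rik* in mean FPKM in controls and 43, all but *Lypd8*, in homozygous mice.

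Of these 44 genes 12 passed the filter, and 0 differed in any of the 3 comparisons (edgeR, with 4, 3 and 2 at an unadjusted p under 0.05 for homozygous against control, heterozygous against control and homozygous against heterozygous, and 0 by DESeq2 or limma). Over all 12645 genes 0.411%, 0.293% and 0.00791% were called in these comparisons and 1019, 669 and 962 had an unadjusted p under 0.05, so that 0 calls among 12 genes is at the background share and says nothing particular about the family. Their median log2 fold change was 0.11 for homozygous and -0.10 for heterozygous against control mice. *Ly6m* was at 38.8, 52.2 and 78.0 FPKM in control, heterozygous and homozygous mice. Its controls spread from 64.2 to 233 CPM and overlapped the homozygous mice, at 208 to 305 CPM, with a log2 difference of 0.99 ± 0.38 (SE, edgeR adjusted p = 0.503). *Ly6e* was at 70.3, 55.3 and 60.1 FPKM and *Ly6a*, encoding Sca-1, at 25.8, 21.0 and 26.5 FPKM. *Lypd9*, *Lypd2* and *Ly6l* had 0 counts in all libraries.

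**Figure D4:**
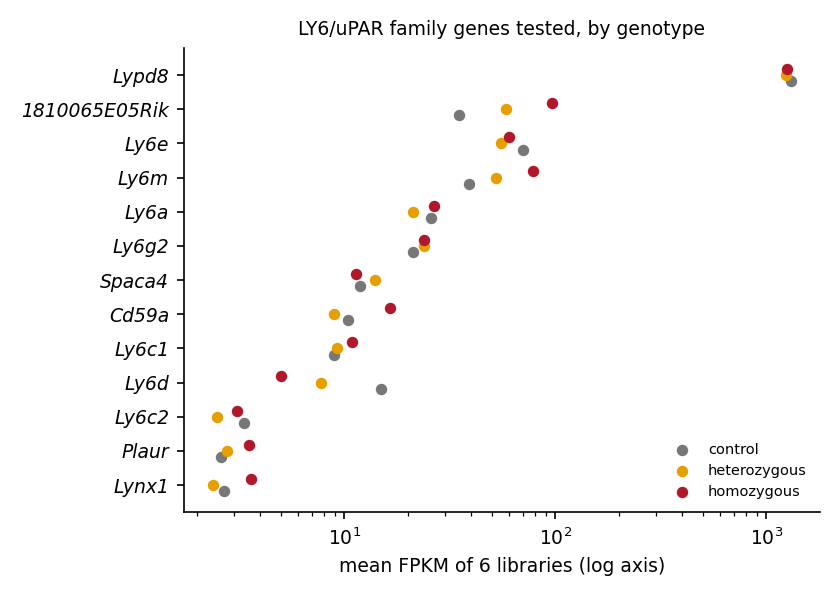
Mean FPKM (log axis) of 1810065E05Rik and of the 12 tested genes of the LY6/uPAR family in control, heterozygous and homozygous mice, n = 6 each. 1810065E05Rik moves from 34.9 to 96.2 FPKM, and Lypd8 stays between 1237 and 1306 FPKM.

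The same holds for the barrier and antibacterial list and the pan-epithelial list, whose counts are also at the background shares of 0.411%, 0.293% and 0.00791%. Of 19 tested genes of the barrier and antibacterial list, 0 differed in any comparison (edgeR, with 0, 1 and 3 at an unadjusted p under 0.05, and 0 by DESeq2 or limma). The lysozyme gene *Lyz1* was at 5248, 5930 and 4618 FPKM and the lectin gene *Reg3b* at 4546, 4017 and 5592 FPKM in control, heterozygous and homozygous mice. The 12 pan-epithelial genes gave 0 calls in each comparison (edgeR, 0 at an unadjusted p under 0.05, and 0 by DESeq2 or limma), with *Epcam* at 1104, 1166 and 1110 FPKM and *Krt8* at 2231, 2240 and 2096 FPKM.

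*1810065E05Rik* and *Col1a1*, the locus that carries the transgene (chr11:94936224-94953042), are both on chromosome 11, 36.5 Mb apart. *Col1a1* had 533 ± 272 CPM in controls, 483 ± 154 CPM in heterozygotes and 718 ± 251 CPM in homozygotes (SD, n = 6 each) and no difference passed the test (edgeR adjusted p = 0.723 for homozygous against control). Of 1070 genes tested on chromosome 11, 5 (0.467%) differed between homozygous and control mice, beside 0.411% of all genes, and 3 (0.280%) between heterozygous and control mice, beside 0.293%. The other 4 were *Rtn4*, *Slc22a5*, *Aldh3a2* and *Acadvl*, of which *Slc22a5*, a carnitine transporter, and *Acadvl*, an acyl-CoA dehydrogenase, are known PPARα targets.

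Within 500 kb there were 42 other protein-coding genes, 14 of which were tested, and 0 of the 14 differed in any comparison (edgeR, with 1, 2 and 0 at an unadjusted p under 0.05, and 0 by DESeq2 or limma), which is at the background shares of 0.411%, 0.293% and 0.00791%. Their log2 differences were -0.54 to 0.04 for homozygous against control mice. The 14 were *Larp1*, *Cnot8*, *Gemin5*, *Mrpl22*, the interferon-inducible GTPase genes *Igtp* and *Irgm2* (which overlap each other, so that their counts are uncertain), *Zfp692*, *Zfp672*, *Sh3bp5l*, *Lypd8*, *2210407C18Rik*, *Gm12258*, *2810021J22Rik* and *Zfp39*. The nearest tested gene upstream was *Lypd8*, and the nearest downstream was *2210407C18Rik*, at 187 kb, with a log2 difference of -0.37 ± 0.16 (SE, edgeR adjusted p = 0.595) between homozygous and control mice. The 28 genes not tested reached at most 2.85 CPM in a library. They were 21 olfactory receptor genes, with at most 0.205 CPM, and *Gm12248*, *4930438A08Rik*, *Gm12253*, *Lypd9*, *Trim58*, *Fam183b* and *Btnl10*. *Gm12253*, the most similar relative, had at most 0.338 CPM.

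**Figure D5:**
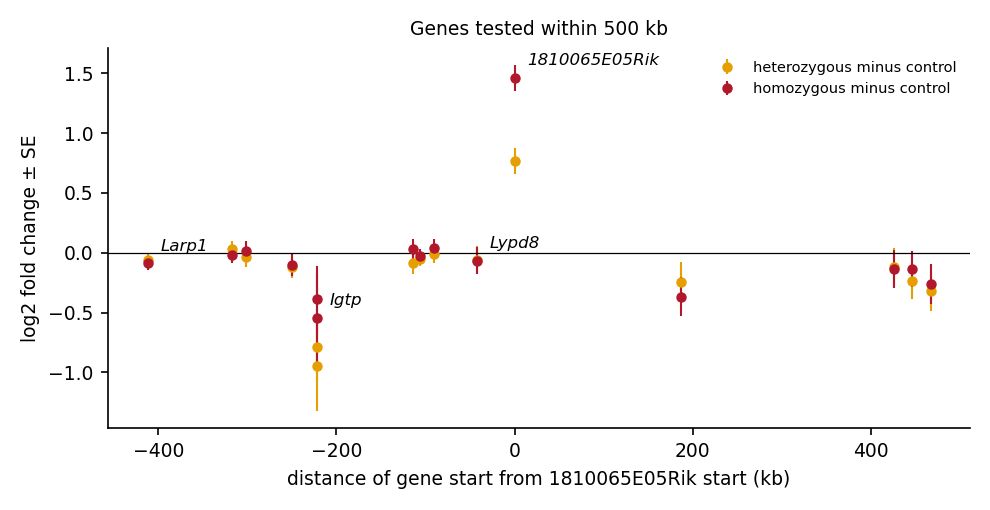
Log2 fold change ± SE against control of the 15 genes tested within 500 kb, by distance of the gene start from that of 1810065E05Rik in kb, for heterozygous and homozygous mice. 1810065E05Rik stands at 0.77 and 1.46, and the other 14 lie between -0.95 and 0.04.

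Sex was not used to choose the gene. *1810065E05Rik* was at 32.8 CPM in female and 31.8 in male controls, 50.8 and 56.0 in heterozygous and 88.5 and 89.3 in homozygous mice. The mean within-genotype difference, female minus male, was -0.03 log2 units (exact permutation test over 4500 arrangements within genotypes, two-sided, p = 0.769), and the lower heterozygous females include replicate 1.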

How the data were processed

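The authors aligned reads with STAR to GRCm38 (Ensembl annotation) and counted them per gene with featureCounts. The deposited counts are not normalized. Deposited CPM scale each count by its library total, deposited FPKM further correct for gene length, and the deposited log2 values are moderated log2 CPM. Poly-A RNA was read without a stated strand. The deposited CPM table repeats 287 rows, which were dropped. Genotypes were tested on the counts of 12645 protein-coding genes in 1 fit of all 18 libraries (edgeR 4.0.16 quasi-likelihood, TMM scaling, R 4.3.3), after a test on simulated data. Log2 CPM used a prior count of 2. Depth was 38528522 to 50376371 counts per library, and intervals of counts cover counting error only. Named genes were *1810065E05Rik*, *Ppara*, *Col1a1*, *Lypd8*, the genes of highest and lowest r or lowest p, those within 500 kb, those of the largest and smallest shares of the rise, and list members that passed or were highest, except 1 gene that is not reported here. The gene and all lists were chosen with earlier results of these data known. Alternatives were DESeq2 1.42.0, limma 3.58.1, other scalings, filters and covariates, a replicate block and leaving out each library. Identity was taken from a global alignment (BLOSUM62) of translated GENCODE vM21 coding sequences.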

Additional observations from a re-analysis of the deposited data

Results flagged for a closer look

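For *1810065E05Rik* and the genes set beside it by library, 36 groups of 6 libraries were checked for a library far from the other 5. Dixon's ratio (gap over range) was taken on log2 CPM, not on CPM, and chance alone marks about 1 group in 20. The level of *1810065E05Rik* itself had no such library. *Upk1a* was lowest in heterozygous replicate 1, at 2.15 CPM beside 3.50 or more in the others (ratio 0.774 on log2 CPM). That library was also the lowest heterozygous one for *1810065E05Rik*. *Col1a1* was lowest in heterozygous replicate 5, at 203 CPM (ratio 0.694 on log2 CPM).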

How the results depend on the processing

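The log2 fold changes of *1810065E05Rik* kept their direction and moved by less than the spread between replicates in 13 other settings (1.38 to 1.51, 0.67 to 0.78 and 0.68 to 0.79 for homozygous against control, heterozygous against control and homozygous against heterozygous) and without each library in turn (1.40 to 1.51, 0.71 to 0.84 and 0.62 to 0.73). The number of genes called was 52, 37 and 1 in these comparisons and 43 to 65, 25 to 53 and 0 to 2 without each library. DESeq2 called 136, 82 and 9, and without the 4 libraries rich in B cell genes, chosen after seeing the data, 31, 15 and 0 were called. Heterozygous against control gave 23 with only the 12 libraries compared. Homozygous against heterozygous gave 0 with DESeq2 size factors, no filter, all biotypes, sex or the smooth muscle score as a covariate, only its 12 libraries, and TMM on totals over all genes, a setting also chosen after seeing the data. With the replicate number as a block, the counts were 49, 22 and 0. Of 18 same-number pairs, 9 had correlated deviations above 0.1 (range -0.606 to 0.644), and 3 of 36 best matches shared a number. Whether the numbers pair the libraries was not tested. Genes that follow *1810065E05Rik* within genotypes numbered 0 in all fits without 1 library and under the replicate block, and 1 with DESeq2 (*Upk1a*) and 1 without a filter (*Irs4*, at most 8 counts in a library, named after its value was seen). The relation with *Col1a1* turned to 0.182 with library size. With the pan-epithelial mean subtracted from *1810065E05Rik* alone, r with *Col1a1* was 0.533, and goblet and smooth muscle turned to -0.129 and 0.0585. Without each library, r was -0.140 to 0.152 for *Col1a1*, -0.373 to 0.0115 for B cell genes and 0.582 to 0.797 for *Lypd8*. For the PPARα target score r was 0.0268 to 0.362, so that 1 library took it close to 0. The ranges were 0.352 to 0.692 for goblet, 0.355 to 0.536 for pan-epithelial and -0.413 to -0.207 for smooth muscle genes. The sex difference without each library was -0.112 to 0.0536 log2 units. The causes were not tested. With at least 1107 counts per library, depth does not limit the level of *1810065E05Rik*, while *Upk1a* and the unfiltered genes rest on few counts.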
